A study of Sus scrofa with 12 samples.

Results

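The genes described here were 10 genes of muscle protein breakdown: the ubiquitin ligases FBXO32, TRIM63 and FBXO30, the transcription factors FOXO1, FOXO3 and FOXO4, and the autophagy genes SQSTM1, MAP1LC3B, GABARAPL1 and ULK1. They were taken by symbol from the 25880 genes of the count matrix, each through the Ensembl ID paired with its symbol. All 10 had counts, and all 10 were among the 14262 genes that passed the low-count filter and were tested. The RNA came from Semimembranosus, a large muscle of the ham, of 12 purebred Italian Large White pigs with divergent intramuscular fat (IMF). The 6 pigs of the high IMF group (pigs 1 to 6) were labelled as 234 to 244 days old, and the 6 pigs of the low IMF group (pigs 7 to 12) as 229 to 249 days old. Each group held 3 pigs labelled as gilts and 3 labelled as barrows, that is, castrated males. All pigs weighed 150 to 160 kg by their labels, shared 1 environment and diet, and had been chosen as extremes of IMF, with no treatment. Muscle was sampled once from each pig, in the slaughterhouse. The pigs were slaughtered on several different days, and which pigs shared a day is not given in the sources used here. The part of slaughter day in the spread between pigs was not tested.

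Muscle loses protein mainly through the ubiquitin-proteasome system and through autophagy. Ligases such as FBXO32 (atrogin-1, also MAFbx) and TRIM63 (MuRF1) tag proteins for the proteasome, and autophagy encloses cell contents in vesicles that fuse with lysosomes. FOXO factors, held out of the nucleus by insulin and AKT signalling, switch on genes of both routes when growth signals fall, as in fasting or disuse.

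The libraries held 131048805 to 178013997 counts per pig. The summed counts of EIF1AY and KDM5D, genes of the Y chromosome, matched the labelled sex in 6 pigs only (1, 2, 4, 6, 11 and 12). Pigs 3 and 5 of the high IMF group and pigs 7, 8, 9 and 10 of the low IMF group did not match, with counts of at least 3816 in pigs labelled as gilts and of at most 6 in pigs labelled as barrows. Whether the sex labels or the libraries were exchanged, and so whether the IMF labels of these 6 pigs hold, was not tested. Comparisons are therefore given for all 12 pigs, and again for the 6 matching pigs where the log2 fold change differed by more than 1.5 times (FOXO3, ULK1, MAP1LC3B and GABARAPL1). In bulk muscle, fewer cells of a type and less RNA per cell cannot be told apart. Pairs of libraries shared a sequencing lane, and which pairs they were is not given in the sources used here.

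No member passed the threshold between the groups. Before adjustment, 5 of the 10 reached p at or under 0.05 (FBXO32, TRIM63, FOXO1, FOXO3 and ULK1), and all 5 had their higher mean in the low IMF pigs. With edgeR's quasi-likelihood test, an adjusted p at or under 0.05 together with a log2 fold change of at least 0.58 in size was reached by 0 of 10 members, and by 0% of all tested genes. The smallest adjusted p of a member was 0.427, for FOXO1. An unadjusted p at or under 0.05 was found for 10.4% of all tested genes, and for 5.38% with the higher mean in low IMF. The log2 fold change, low over high IMF, lay above 0 in 9 of 10 members and in 48.4% of all tested genes. Its median was 0.44 over the members and -0.01 over all tested genes. In none of the 10 did the 6 low IMF pigs separate from the 6 high IMF pigs, as the groups did for 0.659% of all tested genes. DESeq2's Wald test called 0 members, where it called 0.458% of the genes it tested. Under this test and under limma-voom, 6 members each reached that unadjusted level, and SQSTM1 was the addition in both. Each pig contributed 1098 to 118032 counts per member, so the spread between pigs, not counting error, set the width of the intervals.

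**Figure D1:**
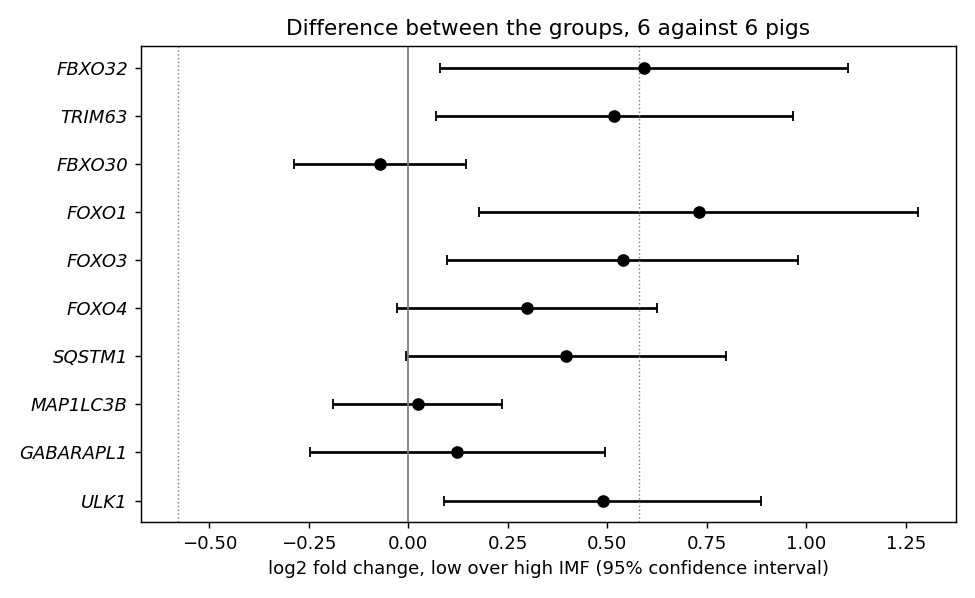
Log2 fold change of each gene, low over high IMF, from edgeR's quasi-likelihood fit of 6 against 6 pigs (points) with its 95% confidence interval (bars). The solid line marks no difference and the dotted lines a change of 0.58 in size. The intervals of FBXO32, TRIM63, FOXO1, FOXO3 and ULK1 lie above 0 before adjustment over all genes, and that of MAP1LC3B is centred at 0.02.

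FBXO32 (ENSSSCG00000005981, chr4:15895875-15925929, plus strand of Sscrofa11.1) encodes the muscle F-box protein of an SCF ligase. It was counted at 371, 547 and 745 CPM (counts relative to library size, with TMM scaling, as the lowest, median and highest pig) in low IMF, and at 174, 388 and 532 CPM in high IMF. Pigs 7 and 12 of the low IMF group and pig 8 stood highest, pig 5 of the high IMF group stood apart at the bottom, and 3 low IMF pigs lay above every high IMF pig. The means were 552 ± 144 CPM (SD, n = 6) in low IMF and 366 ± 120.2 CPM (SD, n = 6) in high IMF. The log2 fold change was 0.59 (SE 0.24, 95% interval 0.08 to 1.10), a 1.51-fold higher level in low IMF, with an edgeR p of 0.0268 and an adjusted p of 0.441. The exact two-sided permutation test over all arrangements of the 12 pigs into 2 groups of 6 gave p = 0.0411 before any adjustment.

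TRIM63 (ENSSSCG00000027684, chr6:83493200-83507471, minus strand) encodes a RING-finger ligase of the sarcomere that marks thick-filament proteins. It ranged over 390.2, 538 and 1088 CPM in low IMF and over 344, 444 and 502 CPM in high IMF. Of the low IMF pigs, 5 lay above all 6 high IMF pigs, and pig 9 lay below the high IMF median. Pig 7, at 1088 CPM, was far above pig 12 at 665 CPM, the next highest. The group means were 621 ± 245 CPM (SD, n = 6) and 434 ± 60.5 CPM (SD, n = 6). The log2 fold change was 0.52 (SE 0.21, 95% interval 0.07 to 0.97) with an adjusted p of 0.441 in edgeR, and the exact permutation p was 0.0433. Without pig 7 it was 0.29 (SE 0.14, edgeR adjusted p = 0.571). Pig 7 also had the lowest TMM factor of the 12 libraries, 0.810, so scaling raised all of its values. In the authors' mapping statistics, the library of pig 7 had the lowest share of uniquely mapped reads and the highest share of unmapped reads. The part of library quality in its values was not tested. With library size alone as the scale, TRIM63 was at 881 CPM in pig 7 and 747 CPM in pig 12, and for FBXO32 pig 12 (761) then stood above pig 7 (604).

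The 250 bases before the annotated start of TRIM63 (chr6:83507472-83507721, minus strand, RefSeq annotation and sequence of Sscrofa11.1) are shown because this window was the only one of the 10 that held the letters TATAAA, given in capitals.
TRIM63: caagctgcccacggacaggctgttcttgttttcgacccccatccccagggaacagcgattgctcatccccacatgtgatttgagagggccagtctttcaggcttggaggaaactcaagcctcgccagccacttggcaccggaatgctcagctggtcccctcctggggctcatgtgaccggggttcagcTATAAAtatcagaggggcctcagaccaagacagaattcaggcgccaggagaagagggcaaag
The match lay 62 bases before the start. On either strand, TATAAA occurred in the same window of 9.76% of 19560 protein-coding genes. A match is a description of letters, and binding was not measured.

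FBXO30 (ENSSSCG00000004121, chr1:19756232-19777621, plus strand), known as MUSA1, is an F-box ligase of muscle that FOXO and BMP signalling control. Its levels were 115, 125 and 134 CPM in low IMF and 106, 126 and 156 CPM in high IMF. Pigs 1 and 3 of the high IMF group were highest and pig 5 lowest, so that the low IMF pigs lay inside the range of the high IMF pigs. Means were 125 ± 7.70 CPM (SD, n = 6) in low IMF and 131 ± 18.3 CPM (SD, n = 6) in high IMF. FBXO30 was the only member with a negative log2 fold change, -0.07 (SE 0.10, 95% interval -0.29 to 0.15, adjusted p = 0.843 in edgeR). With 1 pig left out it lay between -0.02 (without pig 1) and -0.12 (without pig 5).

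**Figure D2:**
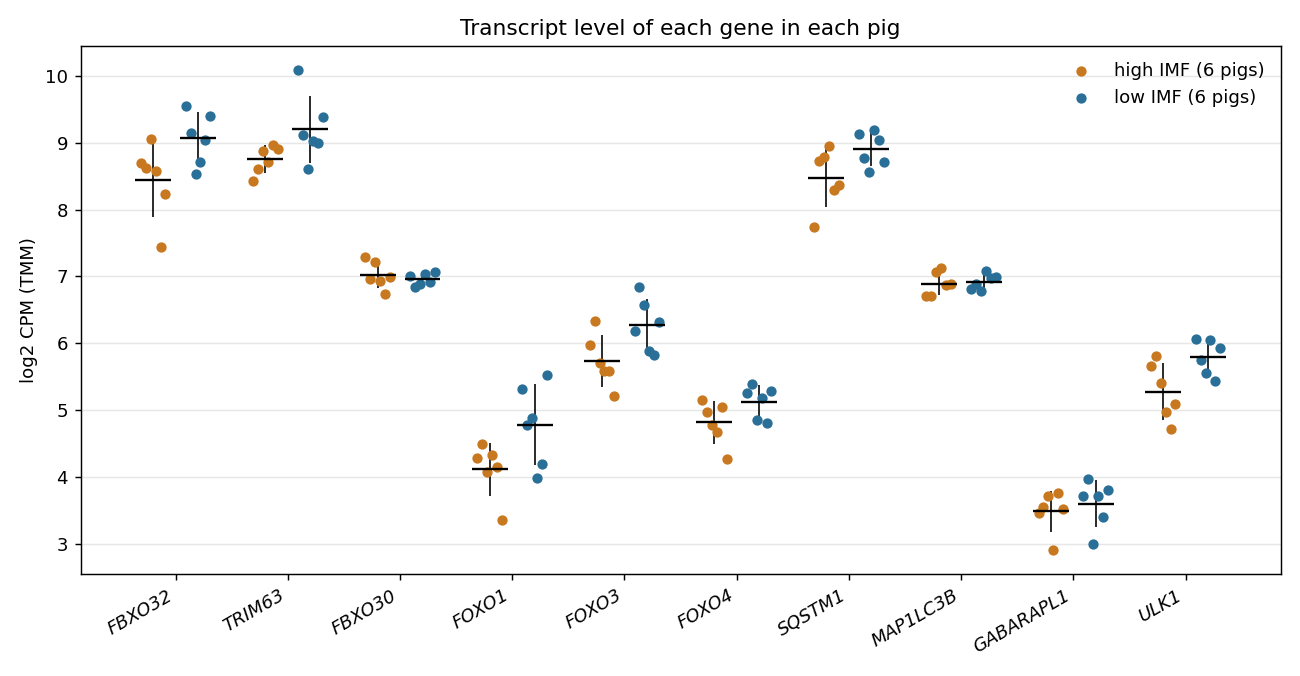
Log2 CPM of each gene in each pig (points, high IMF orange, low IMF blue), with the mean (horizontal bar) and SD (vertical line) of 6 pigs per group. The groups overlap for all 10 genes, and pig 7 gives the single high TRIM63 point at 1088 CPM on the linear scale.

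Among the FOXO factors, FOXO1 (ENSSSCG00000009370, chr11:15317222-15410059, minus strand), the main FOXO target of insulin signalling, had the largest log2 fold change of the members. Its levels were 15.7, 28.5 and 46.1 CPM in low IMF and 10.2, 18.5 and 22.4 CPM in high IMF. Pigs 12 (46.1 CPM) and 7 (39.7 CPM) stood well above the rest, 4 low IMF pigs exceeded every high IMF pig, and pigs 10 and 11 did not. Pig 6 of the high IMF group was the lowest of all. The means were 29.5 ± 11.8 CPM (SD, n = 6) and 17.8 ± 4.17 CPM (SD, n = 6). The log2 fold change was 0.73 (SE 0.26, 95% interval 0.18 to 1.28), 1.66-fold, with an unadjusted p of 0.0133 and an adjusted p of 0.427 in edgeR, and an exact permutation p of 0.0498.

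FOXO3 (ENSSSCG00000004387, chr1:74626673-74760323, plus strand), which drives both ligase and autophagy genes in atrophying fibres, was measured at 56.9, 76.0 and 115 CPM in low IMF and at 37.0, 50.1 and 80.8 CPM in high IMF. All 6 low IMF pigs lay above the high IMF median. Pigs 8 and 9 were highest, pig 2 of the high IMF group came next, and pig 6 was lowest. With means of 79.6 ± 22.1 CPM (SD, n = 6) and 54.8 ± 15.2 CPM (SD, n = 6), the log2 fold change was 0.54 (SE 0.21, 95% interval 0.10 to 0.98). The adjusted p was 0.435 in edgeR and the exact permutation p was 0.0368. In the 6 pigs whose Y counts matched the label, 4 high and 2 low IMF, the log2 fold change was 0.26 (edgeR adjusted p = 0.998).

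FOXO4 (ENSSSCG00000012399, chrX:57132549-57140377, plus strand), a related factor on the X chromosome, showed 27.8, 37.2 and 41.9 CPM in low IMF and 19.2, 29.4 and 35.6 CPM in high IMF. Again 4 low IMF pigs (7, 8, 10 and 12) were above every high IMF pig, and pig 6 was lowest. Means were 35.3 ± 5.75 CPM (SD, n = 6) and 28.7 ± 5.92 CPM (SD, n = 6). The log2 fold change of 0.30 (SE 0.15, 95% interval -0.03 to 0.63) had an adjusted p of 0.510 in edgeR.

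The windows of 250 bases before FOXO3 (chr1:74626423-74626672, plus strand) and FOXO4 (chrX:57132299-57132548, plus strand) are shown because they held the FOXO-binding letters GTAAACA, which no other member had in this window. The capitals mark GTAAACA and, in FOXO3, the E-box CACGTG.
FOXO3: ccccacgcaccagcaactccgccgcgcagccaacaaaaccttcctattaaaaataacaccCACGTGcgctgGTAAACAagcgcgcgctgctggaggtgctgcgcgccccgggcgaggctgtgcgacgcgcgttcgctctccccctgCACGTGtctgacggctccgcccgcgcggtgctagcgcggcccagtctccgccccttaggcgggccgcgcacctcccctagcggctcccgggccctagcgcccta
FOXO4: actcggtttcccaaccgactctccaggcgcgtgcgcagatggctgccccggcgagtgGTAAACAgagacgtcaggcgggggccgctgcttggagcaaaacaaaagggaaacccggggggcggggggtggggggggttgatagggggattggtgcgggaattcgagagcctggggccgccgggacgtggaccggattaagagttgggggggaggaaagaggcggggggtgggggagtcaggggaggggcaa
GTAAACA lay 179 bases before the start of FOXO3 and 193 before that of FOXO4, and CACGTG lay 190 and 104 bases before FOXO3. Searched on both strands, GTAAACA was in 2 of 10 member windows and in 2.28% of the windows of all 19560 genes, and CACGTG in 1 of 10 and 6.39%. Over 1000 bases before the start, GTAAACA was in 4 members (also FBXO30 and FOXO1) and in 11.2% of all genes, and CACGTG in 2 members (also FBXO32) and 16.6%. FBXO32, TRIM63 and ULK1 had no GTAAACA in 1000 bases, which says nothing about FOXO at sites farther away or with other letters. The annotated starts of FBXO32 and FOXO1 lay 36 and 26 bases before the coding sequence, and that of SQSTM1 at it (0 bases), so their windows may hold transcribed sequence.

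ULK1 (ENSSSCG00000009742, chr14:23423693-23448130, minus strand), the kinase that starts autophagy and is inhibited by mTORC1, had the smallest exact p of the members. It was counted at 43.1, 57.5 and 66.9 CPM in low IMF and at 26.3, 38.3 and 56.3 CPM in high IMF. All 6 low IMF pigs lay above the high IMF median, and pigs 7, 10 and 12 above every high IMF pig. In high IMF, pigs 1 and 2 were within the low IMF range while pigs 3, 4, 5 and 6 lay under it. The means were 56.4 ± 10.0 CPM (SD, n = 6) and 40.2 ± 11.7 CPM (SD, n = 6). The log2 fold change was 0.49 (SE 0.19, 95% interval 0.09 to 0.89, adjusted p = 0.435 in edgeR), with an exact permutation p of 0.0303. In the 6 matching pigs it was 0.28 (edgeR adjusted p = 0.998).

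SQSTM1 (ENSSSCG00000014016, chr2:78752768-78763998, minus strand) encodes p62, the receptor that links ubiquitin-tagged cargo to the autophagosome. Its levels were 379, 483 and 586 CPM in low IMF and 213, 377 and 493 CPM in high IMF. Pigs 7, 10 and 11 lay above every high IMF pig, and pig 1 was far below the rest at 213 CPM. With means of 486 ± 84.6 CPM (SD, n = 6) and 369 ± 102 CPM (SD, n = 6), the log2 fold change was 0.40 (SE 0.19, 95% interval -0.01 to 0.80, adjusted p = 0.485 in edgeR).

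Of the ATG8 family, whose proteins are conjugated to the growing vesicle membrane, the 2 genes among the members had small differences. MAP1LC3B (ENSSSCG00000002655, chr6:1919879-1941069, minus strand), the usual marker of autophagosomes as LC3B protein, ranged over 109, 122 and 136 CPM in low IMF and over 104, 118 and 139 CPM in high IMF. The ranges were nearly the same, with pigs 4 and 10 highest and pigs 1 and 2 lowest. Its log2 fold change was 0.02 (SE 0.10, 95% interval -0.19 to 0.23, adjusted p = 0.961 in edgeR), and the sign turned when pig 1, 2 or 10 was left out. In the 6 matching pigs it was 0.13 (SE 0.17). GABARAPL1 (ENSSSCG00000000645, chr5:61758127-61767427, minus strand), a FOXO-responsive relative, ranged over 7.94, 13.1 and 15.6 CPM in low IMF and over 7.49, 11.6 and 13.6 CPM in high IMF. Pig 4 of the high IMF group and pig 9 of the low IMF group were both low, under 8 CPM, and pig 8 was highest. Its log2 fold change was 0.12 (SE 0.17, 95% interval -0.25 to 0.49, adjusted p = 0.838 in edgeR). It was 0.03 without pig 4, 0.22 without pig 9 and 0.25 (SE 0.23) in the 6 matching pigs. Over all 12 pigs, these 2 intervals and that of FBXO30 leave out a difference of 0.58 on the log2 scale in either direction.

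Levels of different genes were compared per kilobase of exon. TRIM63 (mean of the 12 pigs 451 CPM per kb) and FBXO32 (358) were highest, followed by SQSTM1 (195) and MAP1LC3B (74.8). FBXO30 (13.6), FOXO4 (9.24), FOXO3 (8.89), ULK1 (7.33), GABARAPL1 (6.74) and FOXO1 (4.38) formed a lower group. MAP1LC3B, at 64.5 to 86.3 CPM per kb, did not overlap its neighbours SQSTM1 (97.2 to 268) and FBXO30 (11.3 to 16.7), whereas every other pair of neighbours in this order overlapped over the pigs. The exon lengths of FBXO32 and TRIM63 in RefSeq, 1283 and 1171 bases, were the shortest of the 10, and a longer transcript would lower both values. Within groups, the SD of log2 CPM was 0.15 for MAP1LC3B and 0.16 for FBXO30, a spread lower than that of over 90% of tested genes (percentiles 8.34 and 9.70). It was 0.51 for FOXO1 and 0.48 for FBXO32 (percentiles 73.1 and 70.3). The highest pig exceeded the lowest by 4.50-fold for FOXO1, 4.29-fold for FBXO32 and 1.34-fold for MAP1LC3B.

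The higher values came mostly from the same few pigs. Pig 12 was among the 3 highest pigs for 7 members, pig 7 for 6 and pig 8 for 5, all in low IMF. Pig 6 was among the 3 lowest for 6 members, and pigs 5 and 9 for 5 each, pig 9 being a low IMF pig. Pigs 7 and 12 were each above the median of the 12 pigs for 9 members. Of these pigs, 7, 8, 9 and 5 carried Y counts that did not match the labelled sex.

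**Figure D3:**
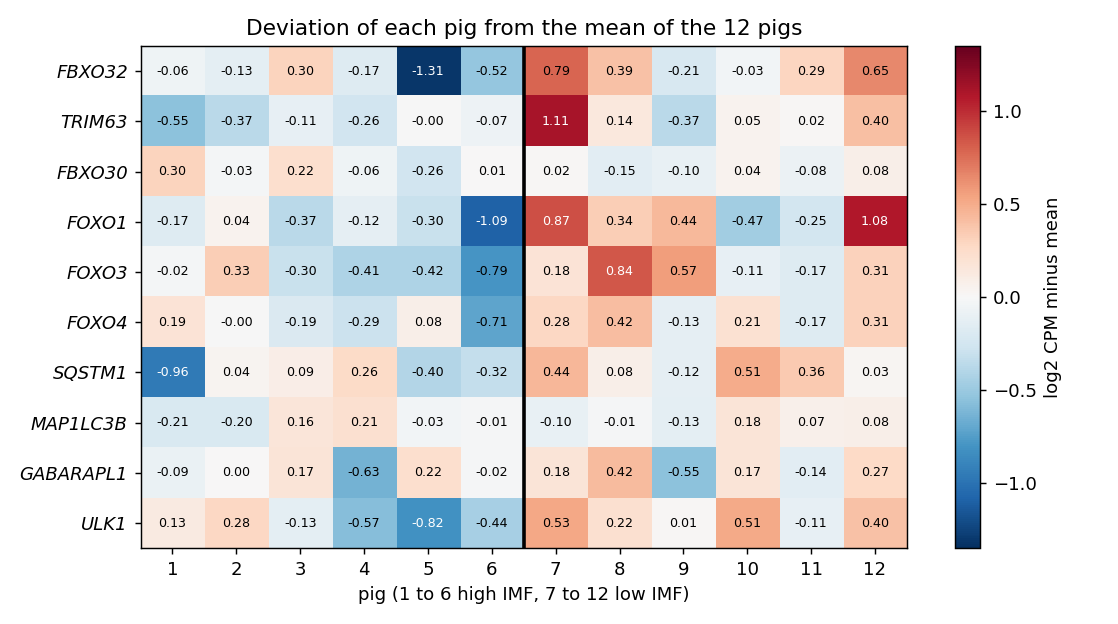
Deviation of each pig (columns, 1 to 6 high IMF, 7 to 12 low IMF) from the mean log2 CPM of the 12 pigs for each gene (rows), with red above and blue below the mean. Pigs 7 and 12 are red for most genes, pig 5 is 1.31 below the mean for FBXO32, and pig 6 is 1.09 below it for FOXO1.

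Over the 12 pigs, the members' log2 CPM were correlated in all 45 pairs with 100000 permutations each, and 0 pairs had an adjusted p at or under 0.05. An unadjusted p at or under 0.05 was found in 7 pairs, all with r above 0. No such count was made over pairs of all tested genes, so these 7 pairs are not set against a background. The median r of the 45 pairs was 0.35, and 0.14 after the group means were removed. The 7 pairs joined FBXO32, ULK1 and the FOXO factors, and TRIM63 was in none of them. With group means removed, the highest r were those of FBXO30 with FBXO32 (0.70, permutation p = 0.0251) and with ULK1 (0.68, permutation p = 0.0446). The adjusted permutation p was 0.389 for each. Without centring, these r were 0.43 and 0.38 over the 12 pigs, and 0.07 and 0.10 without pig 5.

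FBXO32 and ULK1 had the highest r, 0.76 (rho 0.70, permutation p = 0.00325, adjusted p = 0.129). Of all tested genes, 0.337% had an r with FBXO32 at least as high, the smallest such share of the 7 pairs. The r was 0.71 within high IMF and 0.43 within low IMF, and 0.62 with group means removed. Without pigs 5 and 7, the 2 farthest from the FBXO32 median, it was 0.48, so the relation rested in part on them.

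The 3 FOXO factors were paired with each other. FOXO1 and FOXO3 had r = 0.74 (rho 0.76, permutation p = 0.00573, adjusted p = 0.129), with 0.82 in high IMF, 0.49 in low IMF and 0.88 without pigs 7 and 12. FOXO3 and FOXO4 had r = 0.70 (rho 0.66, adjusted permutation p = 0.151). It was 0.54 without pig 6, 0.62 without pig 8 and 0.34 without both, the 2 farthest from the FOXO3 median, so the relation rested in part on them. FOXO1 and FOXO4 had r = 0.69 (rho 0.55, adjusted permutation p = 0.153), and 0.60 without pigs 7 and 12. With group means removed, the r of these 3 pairs was 0.61, 0.57 and 0.56, with adjusted permutation p = 0.389 for each. Without centring, 1.61%, 5.74% and 3.23% of all tested genes had an r at least as high with the first gene of each pair. With library size alone as the scale, FBXO32 with ULK1 (r = 0.77), FOXO1 with FOXO3 (r = 0.78) and FOXO3 with FOXO4 (r = 0.78) each had an adjusted permutation p of 0.0454. Values on that scale keep the differences between libraries that TMM scaling removes, with factors of 0.810 to 1.12. With TMM scaling none of these 3 pairs passed.

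The other pairs with an unadjusted p at or under 0.05 were FOXO3 and ULK1 (r = 0.65), FOXO4 and ULK1 (r = 0.63) and FBXO32 and FOXO1 (r = 0.61), with adjusted permutation p of 0.204, 0.204 and 0.238. An r at least as high with the first gene of each pair was found in 8.10%, 5.51% and 2.44% of all tested genes. Without pig 5, FOXO4 and ULK1 had r = 0.85 with an adjusted permutation p of 0.0369. Within low IMF, the r of FOXO3 and ULK1 was -0.10 and within high IMF 0.79. SQSTM1 and MAP1LC3B had r = 0.56 (rho 0.56, adjusted permutation p = 0.306), while MAP1LC3B and FOXO3 had the lowest r of all pairs, -0.39.

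The 2 best-known ligases were not ordered alike in both groups. FBXO32 and TRIM63 had r = 0.52 over the 12 pigs (rho 0.63, permutation p = 0.0911, adjusted p = 0.308). Within low IMF r was 0.88, where pigs 7 and 12 were highest for both genes and pig 9 lowest for both. Within high IMF r was -0.51, where pig 5 had the lowest FBXO32 (174 CPM) and the highest TRIM63 (502 CPM), and pig 1 had the lowest TRIM63 (344 CPM). The difference between these 2 values of r, each over 6 pigs, was not tested. Without pig 7 the pooled r was 0.31, and without pig 5 it was 0.77.

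**Figure D4:**
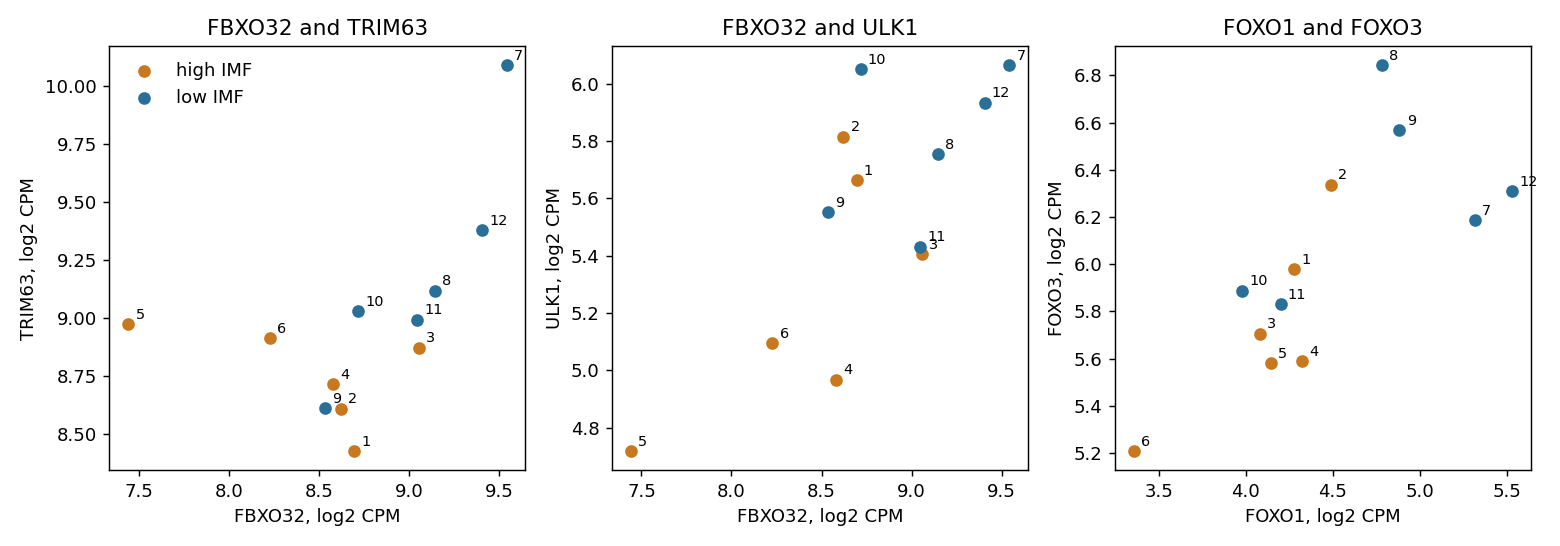
Log2 CPM of FBXO32 against TRIM63, FBXO32 against ULK1, and FOXO1 against FOXO3, with 1 numbered point per pig (high IMF orange, low IMF blue). FBXO32 and TRIM63 are ordered alike in low IMF (r = 0.88) and not in high IMF (r = -0.51), where pig 5 lies far to the left.

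**Figure D5:**
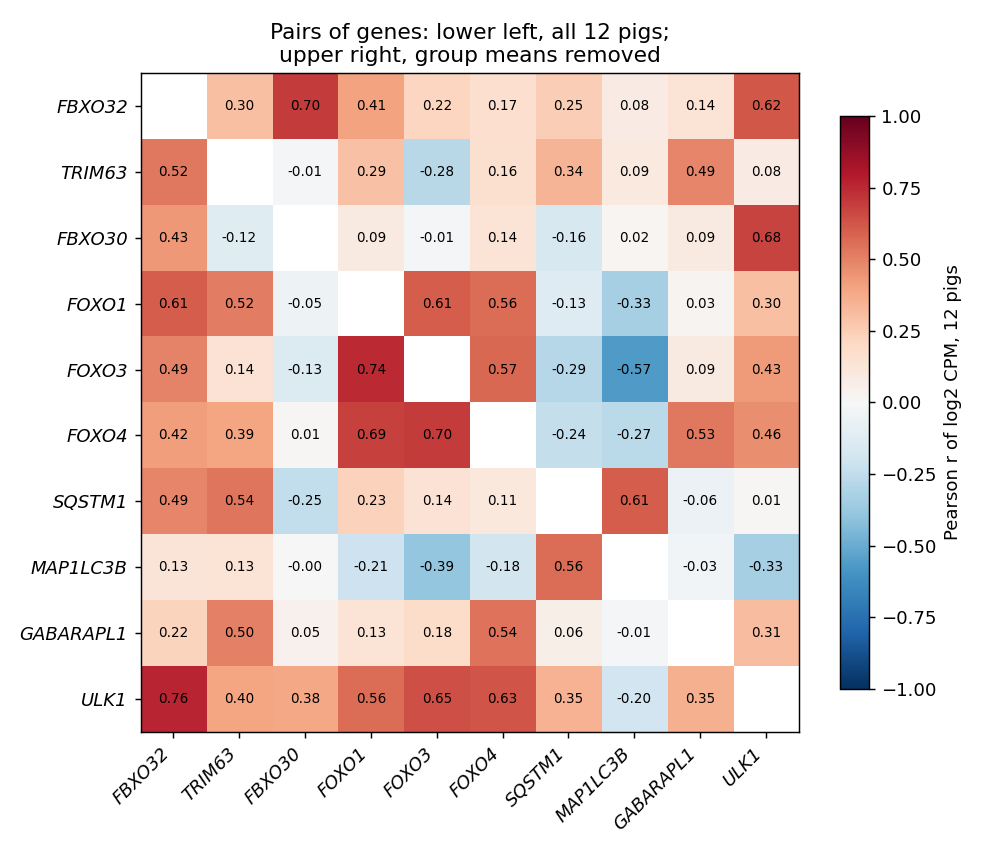
Pearson r of log2 CPM for each pair of genes, over all 12 pigs in the lower left and with group means removed in the upper right. In the lower left, the FOXO factors and ULK1 have values of 0.56 to 0.74 with each other, and FBXO32 with ULK1 has the highest value (0.76). MAP1LC3B has values under 0 with all 3 FOXO factors.

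By a fixed rule, the 3 genes with the highest group-centred r over the 12 pigs were named for each member. Each was the extreme of 14262 genes over 12 pigs, so the r is a description only. FBXO32 was closest to ZKSCAN7 (0.93), ZFAND5 (0.91) and MLYCD (0.87). ZFAND5 encodes a ubiquitin-binding activator of the proteasome, and its r with FBXO32 without centring was 0.94. TRIM63 was closest to NDUFA10 (0.96), CHCHD6 (0.95) and EPRS1 (0.93), of which NDUFA10 is a subunit of respiratory complex I. FBXO30 was closest to RELCH (0.88), AP4E1 (0.83) and SLC18B1 (0.83). FOXO1 was closest to HMOX2 (0.97), ARHGEF15 (0.93) and PPP1R21 (0.92), FOXO3 to NUMA1 (0.95), GSE1 (0.94) and GTPBP1 (0.93), and FOXO4 to USP22 (0.90), ZRSR2 (0.90) and WNT11 (0.88). SQSTM1 was closest to TOPORS (0.90), TMEM205 (0.90) and KCNQ5 (0.89). MAP1LC3B was closest to IMMP1L (0.97), LAMTOR3 (0.95) and MRPL33 (0.94), where LAMTOR3 is part of the lysosomal scaffold of mTORC1. GABARAPL1 was closest to PSMG3 (0.90), AGT (0.89) and KLF12 (0.88), and ULK1 to MIA3 (0.92), CCND2 (0.88) and CTIF (0.87). No gene was named for more than 1 member. Without centring, the lowest of these r were 0.14 for PPP1R21 with FOXO1 and 0.48 for CCND2 with ULK1.

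The remaining genes of the pathway were read from lists in the same edgeR fit, in which no gene of any list was called. Of 24 further muscle ubiquitin ligases and ubiquitin genes tested, 4 had an unadjusted p at or under 0.05 with the higher mean in low IMF and 1 with the higher mean in high IMF, and the median log2 fold change was 0.05. The smallest p belonged to TRIM54, a relative of TRIM63 at the sarcomere (0.52, SE 0.17), ASB2 (0.41, SE 0.15) and CBLB, a ligase of insulin receptor substrate (-0.72, SE 0.30), with adjusted p of 0.420, 0.427 and 0.441.

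Of 21 FOXO target genes, 3 had such a p with the higher mean in low IMF and 1 in high IMF, around a median of 0.08. They included G0S2, an inhibitor of lipolysis (log2 fold change -1.41, SE 0.43, at most 0.655 CPM in any pig), the insulin receptor INSR (0.45, SE 0.16) and ZFAND5 (0.29, SE 0.12), with edgeR adjusted p of 0.419, 0.427 and 0.441. ZFAND5 was also in the list of ubiquitin ligases and ubiquitin genes, and is counted in both. The core autophagy machinery had 4 of 30 genes in low IMF and 1 in high IMF around a median of 0.06. On the log2 fold change scale, PIK3R4, a subunit of the lipid kinase complex, was at -0.33 (SE 0.10). ATG13, a partner of ULK1, was at 0.32 (SE 0.11), and MAP1LC3A, a further ATG8 family gene, at 0.33 (SE 0.12). Of 25 autophagy receptor and lysosome genes, 1 had such a p in each direction, around a median of 0.07. The 3 with the smallest p were the lysosomal regulator TFE3 (0.31, SE 0.10), the protease CTSL (-1.78, SE 0.66) and VPS18 (0.24, SE 0.13). The groups overlapped for CTSL, at 1.79 to 5.61 CPM in low IMF and 2.87 to 45.5 CPM in high IMF. Its exact permutation p was 0.175.

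The kinases and deacetylases upstream of FOXO held the largest such share of these pathway lists, 7 of 28 genes with the higher mean in low IMF and 1 in high IMF, around a median of 0.16, beside 10.4% of all tested genes in either direction. AKT2, which phosphorylates FOXO factors, was counted at 70.7 to 92.1 CPM in low IMF and 62.4 to 70.9 CPM in high IMF, a log2 fold change of 0.32 (SE 0.09, adjusted p = 0.367 in edgeR). The acetyltransferase CREBBP was at 0.63 (SE 0.20) and the kinase SGK1 at -1.02 (SE 0.37) on the same scale.

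Markers were read for the muscle itself and for other cells and states in the sample. The fibre gene ACTA1 was at 14492 CPM or more in every pig. The 6 general fibre and 6 slow-fibre markers tested held no gene with an unadjusted p at or under 0.05 (medians 0.10 and -0.17). Of 5 fast-fibre markers 1 had such a p, the calcium pump ATP2A1 (0.46, SE 0.13, edgeR adjusted p = 0.367), with a median of 0.16. Their summed level was 21849 to 28867 CPM in low IMF and 17677 to 24530 CPM in high IMF. Pig 7, which had the highest TRIM63, had the highest summed level of the general, slow and fast fibre markers alike.

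The members were also set against the mean log2 CPM of each marker and response list, 90 relations in all, of which 9 had an unadjusted permutation p at or under 0.05 and 0 an adjusted one. The fast-fibre markers had r = 0.75 with FBXO32 (rho 0.67, permutation p = 0.00575, adjusted p = 0.343), 0.68 with ULK1 and 0.60 with SQSTM1. With group means removed these were 0.60, 0.47 and 0.40. Within high IMF they were 0.87, 0.52 and 0.27, and within low IMF 0.08, 0.36 and 0.75. The general fibre markers had r = 0.65 with SQSTM1 (rho 0.73, permutation p = 0.0258, adjusted p = 0.446) and 0.59 with group means removed. With TRIM63 their r was 0.63 (rho 0.30, permutation p = 0.0369, adjusted p = 0.446), and 0.01 without the 2 pigs farthest from the marker median. The part of fibre content or fibre type in the members' levels was not tested.

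Adipocyte markers did not follow the IMF groups. None of the 9 tested had an unadjusted p at or under 0.05, the median log2 fold change was 0.16, and the summed level was 250 to 766 CPM (median 575) in low IMF and 415 to 582 CPM (median 488) in high IMF. LEP was at 0 in at least 1 low IMF pig and under 1 CPM in all pigs. Of 8 macrophage markers AIF1 had such a p with the higher mean in high IMF (-0.46, SE 0.20), of 6 endothelial markers CDH5 with the higher mean in low IMF (0.55, SE 0.16), and of 7 stromal markers PDGFRA with the higher mean in high IMF (-0.42, SE 0.17), around medians of -0.21, 0.13 and -0.07.

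Of 17 immediate early genes, which respond within minutes to stress or handling, 7 had an unadjusted p at or under 0.05 with the higher mean in high IMF and 1, NR4A3 (1.12, SE 0.38), in low IMF. Their median log2 fold change was -0.51, with EGR2 at -1.02 (SE 0.33) and IER2 at -0.92 (SE 0.30). Their mean log2 CPM had r = -0.73 with FOXO1 (rho -0.52, permutation p = 0.00762, adjusted p = 0.343), and -0.18 without the 2 farthest pigs. With FBXO32 it had r = -0.60 (rho -0.58, permutation p = 0.0446, adjusted p = 0.446), and -0.38 with group means removed. Of 10 glucocorticoid-responsive genes, 2 had such a p in each direction around a median of 0.30, with DUSP1 at -0.83 (SE 0.28), SGK1 as above and KLF15, itself a FOXO target, at 0.66 (SE 0.28). The mean log2 CPM of the glucocorticoid-responsive genes had r = 0.64 with FOXO3 (rho 0.53, permutation p = 0.0201, adjusted p = 0.446) and 0.63 with FOXO4 (rho 0.69, permutation p = 0.0402, adjusted p = 0.446). With group means removed these were 0.62 (permutation p = 0.0282) and 0.59 (permutation p = 0.0234), both before adjustment. With FOXO1 r was 0.41 and rho 0.71 (permutation p of rho = 0.0113). The part of either response in the members' levels was not tested.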

How the data were processed

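Stranded mRNA libraries of 12 Semimembranosus samples were sequenced by the authors as paired 100-base reads. The reads were trimmed with Trimmomatic, aligned to Sscrofa11.1 with HISAT2 and counted per Ensembl gene with HTSeq. The strand setting of the counting is not given in the sources used here, so whether reads of antisense genes were separated is not known. Reads shared with near-identical gene copies were not examined. The deposited values were raw counts per gene, with 131048805 to 178013997 per pig, and this number limits precision little beside the spread between pigs (common biological coefficient of variation 0.332). In every pig the total exceeds the number of reads that the authors list as input to mapping. The reason is not given in the sources used here, so a count may not stand for a single read pair. Groups followed the labelled IMF. Counts were filtered with filterByExpr and fitted with edgeR 4.0.16 in R 4.3.3 (TMM, group term, quasi-likelihood test, Benjamini-Hochberg adjustment over 14262 genes); CPM were TMM-scaled, log2 CPM had a prior count of 2, and a fold change is low over high IMF. Exact permutation tests and correlations used scipy 1.17.1 and numpy 2.4.6. DESeq2 1.42.0, limma 3.58.1, other scalings, covariates and left-out pigs were alternatives. Scripts were tested on simulated data. RefSeq models for positions and exon lengths were matched by Ensembl ID, or by symbol where RefSeq listed no such ID. Promoter windows were matched by symbol. Named were the 10 members, the 3 smallest p of each list, the 3 nearest genes of each member, and genes of label checks. The members and lists (ligases, FOXO targets, autophagy, lysosome, upstream kinases, markers and responses) were chosen with earlier results of these data known.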

Additional observations from a re-analysis of the deposited data

Results flagged for a closer look

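In 2 of the 20 groups of 6 pigs examined (10 genes in each IMF group), 1 pig lay far from the others by Dixon's ratio on log2 CPM, which chance gives in about 1 of 20 groups. FOXO1 in pig 6 of the high IMF group was at 3.36 log2 CPM against 4.08 to 4.49 in the other 5, a ratio of 0.638, past the critical value for 6 samples. GABARAPL1 in pig 4 of the high IMF group was at 2.91 log2 CPM against 3.45 to 3.77 in the other 5, a ratio of 0.637. On the linear CPM scale the ratios were 0.545 and 0.566, and neither passed. The Y chromosome counts of both pigs matched their labelled sex.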

How the results depend on the processing

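No member was called under any alternative run, and log2 fold changes of 9 members kept their sign in all of them. That of MAP1LC3B ranged from -0.0179 to 0.0680 with 1 pig left out and was negative without pig 1 (-0.0179), pig 2 (-0.0142) or pig 10 (-0.0121); the cause was not tested. Members with an unadjusted p at or under 0.05 numbered 5 of 10 in all pigs, 3 to 7 with 1 pig left out (3 without pig 7, where FBXO32 and TRIM63 no longer reached it) and 2 (FBXO32 and TRIM63) in the 6 matching pigs, where there were fewer samples. Genes called numbered 64 by DESeq2's Wald test, and 0 to 1 with 1 pig left out (1 without pig 5 or pig 10). Correlated pairs numbered 3 without TMM scaling, with r of 0.77, 0.78 and 0.78, and 0 to 1 with 1 pig left out (1 without pig 5). Of the other single values with a test, 315 kept their side of the threshold, and without pig 5 the r of FOXO4 and ULK1 (0.85) passed it. The all-gene median shifted by less than 0.1 under every scaling. No paired analysis was possible because the replicate numbers only name the pigs.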
